A study of Homo sapiens with 4 samples.

Results

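The BCL2 family of apoptosis regulators was followed through 10 genes, which were the survival members BCL2, BCL2L1 and MCL1, the effectors BAX and BAK1, and the BH3-only members BID, BAD, BBC3, PMAIP1 and BCL2L11. They were chosen by name, and all 10 were found among the 16504 genes of the table, as 42 of its 28918 transcripts. To address what the loss of CEBPG, a bZIP transcription factor that binds DNA together with partners such as ATF4, does to the transcriptome, RNA-seq had been performed on 4 libraries. All are labelled NB4, a line of human cells from an acute promyelocytic leukemia. A pair of libraries carried the label NC with CEBPG present (control), and another pair carried the label CEBPG3 with CEBPG knocked down (knockdown). In the methods of the study, cells received short hairpin RNAs from the lentiviral vector pLKO.1-puro and were selected with puromycin. If the 3 in the label names a hairpin, the knockdown is that of a single hairpin, and an effect of that hairpin on other transcripts cannot be told apart from that of CEBPG.

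BCL2 family proteins decide whether the outer mitochondrial membrane is opened. The survival proteins hold BAX and BAK1 in check, BAX and BAK1 form the pores through which cytochrome c leaves the mitochondrion, and the BH3-only proteins carry stress signals to both sides by binding into a groove of the survival proteins or by activating the effectors. In acute myeloid leukemia, cells rely on BCL2, BCL-xL (a product of BCL2L1) and MCL1 to different degrees, and drugs that mimic a BH3 peptide are used against them.

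CEBPG itself had levels of 17.1 and 18.1 FPKM (fragments per kilobase, relative to all mapped fragments of its library) with NC and of 6.91 and 7.96 FPKM with CEBPG3, which left 42.2% of the control mean (log2 difference -1.14, limma adjusted p = 0.000836). FPKM hold no read counts, so the depth was unknown and the counting error behind a value cannot be stated. Between 10875 and 10964 genes reached 1 FPKM in a library. The labelled cell type was checked against marker genes. Of 8 promyelocyte and granule genes, 5 could be read (MPO, ELANE and CTSG were not analysed here), and 3 of these 5 were under 1 FPKM in all 4 libraries, with a sum over the list of 9.85 to 10.5 FPKM in control and 12.9 to 13.6 FPKM in knockdown libraries. Of 7 myeloid surface and regulator genes, 5 were under 1 FPKM throughout, with a sum of 21.3 to 24.2 FPKM in control and 27.8 to 28.4 FPKM in knockdown libraries. Erythroid genes stood high. Of 10, 9 were at 10 FPKM or more in all 4 libraries, and their sum went from 7420 to 7860 FPKM in control to 8430 to 9020 FPKM in knockdown libraries. The 5 lymphoid genes read of 6 summed to 32.7 to 33.7 FPKM in control and 57.1 to 67.6 FPKM in knockdown libraries, with 4 of the 5 under 1 FPKM throughout, and the 2 megakaryocyte genes read of 5 summed to 5.40 to 6.26 FPKM and 8.12 to 9.23 FPKM. No marker that could be read was at 0 in all 4 libraries. These levels go against the label of a promyelocytic line, and the sums of all 5 lists were higher in both knockdown libraries than in both control libraries, beside every difference given here. Their part in the results was not tested. In such bulk RNA, fewer cells of a type and less RNA per cell cannot be told apart.

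Of the 10 members, 5 differed between knockdown and control at an adjusted p under 0.05, against 20.9% of the 10968 tested genes, which were those averaging 1 FPKM or more. BCL2L11, BAD, BCL2L1 and BAK1 were higher in the knockdown libraries (4 of 10, against 10.9% of genes) and BID was lower (1 of 10, against 9.99% of genes). MCL1, BAX, BCL2, BBC3 and PMAIP1 did not pass. Tests were made in limma on log2(FPKM + 1) over all genes tested, and each difference is knockdown minus control on that scale. None of the 10 passed the threshold of the study, read as an unadjusted p under 0.05 with a log2 difference beyond 1 in either direction, against 0.602% of genes. In 8 members the control and knockdown libraries did not overlap, against 64.8% of genes, and 8 of 10 differences were positive. The share of positive differences over all tested genes is not given here. Of the positive ones, those of BBC3 and PMAIP1 changed sign with a library left out. The median difference of the members was 0.21, beside 0.01 over all tested genes, and the sign of every member was the same under 2 other scalings of the libraries. When no filter on low values was applied, all 5 calls were lost, with adjusted p of 0.057 to 0.124 in limma.

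**Figure D1:**
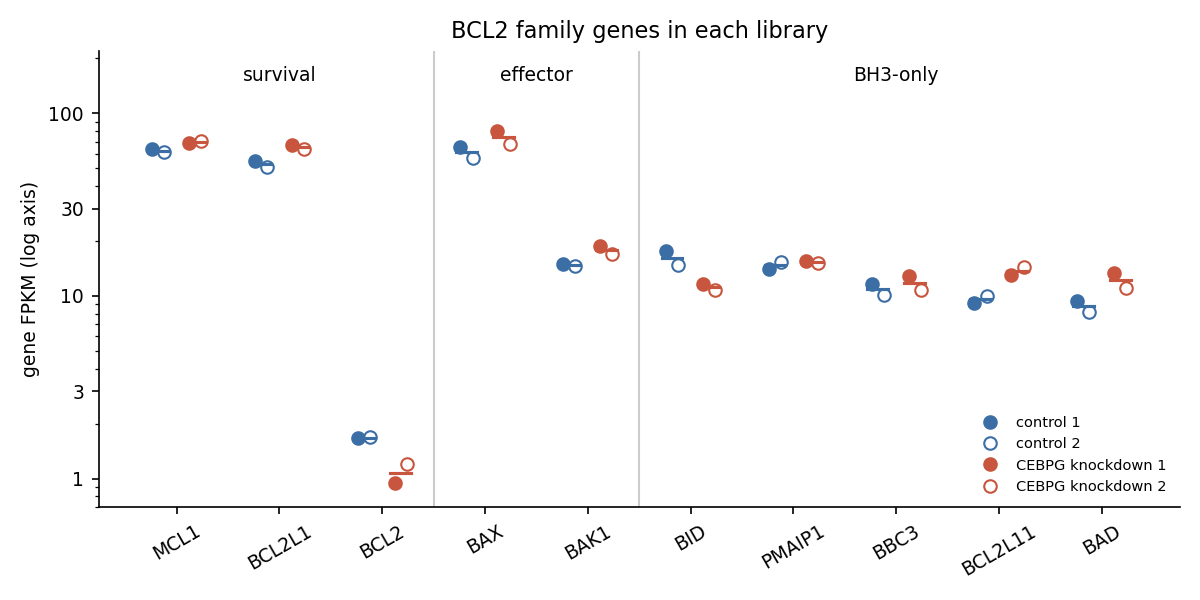
Level of each member in FPKM on a log axis, in the 2 control and the 2 knockdown libraries, with each point a library and each bar the mean of its group. MCL1, BAX and BCL2L1 lie above 50 FPKM in every library, BCL2 lies under 2 FPKM, and the groups overlap in BBC3 and PMAIP1.

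Levels were compared between genes in FPKM, which is per length of transcript. In control libraries MCL1 and BAX were highest, and their libraries overlapped. BCL2L1 followed, then BID, BAK1 and PMAIP1, of which BID overlapped with BAK1 and BAK1 with PMAIP1. BBC3 came next, then BCL2L11 and BAD, which overlapped, and BCL2 was lowest. In knockdown libraries the top 3 were again BAX, MCL1 and BCL2L1, with BAX and MCL1 overlapping. BID, next after BCL2L1 in control, was now the lowest but for BCL2, with libraries that overlapped with those of BBC3, and BCL2L11, BAD and BBC3 overlapped in turn.

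Gene positions are those of GENCODE 44 on GRCh38. Among the survival members, MCL1 (chr1:150560895-150579738, minus strand) encodes a short-lived protein that many myeloid leukemia cells need. It was at 63.5 and 61.6 FPKM in control and 68.6 and 70.9 FPKM in knockdown libraries. Both knockdown values were above both control values, yet the difference of 0.15 (SE 0.0565) did not pass (limma adjusted p = 0.097). MCL1 was above 91.2% of all tested genes in level.

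BCL2L1 (chr20:31664452-31723989, minus strand) encodes BCL-xL, which protects erythroid and megakaryocytic cells among others. It was at 54.5 and 51.1 FPKM in control and 66.7 and 63.5 FPKM in knockdown libraries, with no overlap. Its mean rose from 52.8 ± 2.42 to 65.1 ± 2.21 FPKM (SD, n = 2), by 1.23-fold, a difference of 0.30 (SE 0.0622, 95% interval 0.149 to 0.445, limma adjusted p = 0.0196). The call rested on both knockdown libraries, since the adjusted p was 0.142 without knockdown replicate 1 and 0.0785 without knockdown replicate 2.

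BCL2 (chr18:63123346-63320128, minus strand), the founding member and the target of venetoclax, was at 1.66 and 1.70 FPKM in control and 0.944 and 1.20 FPKM in knockdown libraries. It was the lowest of the 10 members in each library, above only 4.64% of tested genes, and its knockdown mean was 63.8% of its control mean, with no overlap. The difference of -0.37 (SE 0.118, 95% interval -0.653 to -0.0936) did not pass (limma adjusted p = 0.0656). At so low a level the log2(FPKM + 1) scale compresses a change, and with 0.1 in place of 1 as the added constant the difference was -0.61, again without a call. Moderation without a mean trend made the call, with a limma adjusted p of 0.0354.

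The effector BAX (chr19:48954815-48961798, plus strand), which moves from the cytosol to mitochondria when activated, was at 65.4 and 56.9 FPKM in control and 79.8 and 68.3 FPKM in knockdown libraries. Its groups did not overlap, but the lower knockdown library exceeded the higher control library by less than the 2 control libraries differed. The difference was 0.27 (SE 0.0964) and did not pass (limma adjusted p = 0.0902). With the replicate number added to the fit it passed (limma adjusted p = 0.00246), although the labels name no pairing. Its size rested on single libraries, at 0.16 without knockdown replicate 1 and 0.17 without control replicate 2, against 0.37 without control replicate 1 (limma adjusted p = 0.0425, a call) and 0.38 without knockdown replicate 2.

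BAK1 (chr6:33572547-33580293, minus strand), the effector that resides on mitochondria, was at 14.9 and 14.7 FPKM in control and 18.9 and 16.9 FPKM in knockdown libraries, with no overlap. Its mean rose from 14.8 ± 0.158 to 17.9 ± 1.41 FPKM (SD, n = 2), by 1.21-fold, a difference of 0.26 (SE 0.0727, 95% interval 0.0863 to 0.432, limma adjusted p = 0.0474). BAK1 was the call nearest to the threshold. It was lost when any of the 4 libraries was left out, with adjusted p of 0.0674 to 0.249, and in limma without a mean trend (adjusted p = 0.0734).

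Of the BH3-only members, BCL2L11 (chr2:111119378-111168444, plus strand) encodes BIM, which binds all survival proteins and can activate BAX and BAK1. BCL2L11 was at 9.15 and 10.04 FPKM in control and 13.0 and 14.5 FPKM in knockdown libraries. The groups lay apart, and the mean rose from 9.60 ± 0.629 to 13.7 ± 1.06 FPKM (SD, n = 2), by 1.43-fold. The difference was 0.47 (SE 0.0811, 95% interval 0.281 to 0.667, limma adjusted p = 0.0105), and without knockdown replicate 2 the adjusted p was 0.0574.

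BAD (chr11:64269830-64284704, minus strand), which is held inactive by phosphorylation and 14-3-3 proteins downstream of growth factor signals, was at 9.44 and 8.20 FPKM in control and 13.4 and 11.0 FPKM in knockdown libraries. It rose by 1.38-fold, from 8.82 ± 0.874 to 12.2 ± 1.72 FPKM (SD, n = 2), with a difference of 0.42 (SE 0.108, 95% interval 0.168 to 0.681, limma adjusted p = 0.0356). The groups did not overlap, but the call was lost without control replicate 2 (adjusted p = 0.109) and without knockdown replicate 1 (adjusted p = 0.158). It was also lost in limma without a mean trend (adjusted p = 0.0563) and when BAD was read by its top transcript (adjusted p = 0.221).

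BID (chr22:17734138-17774770, minus strand) links death receptors to mitochondria, since caspase 8 cuts it to the active fragment tBID. It was at 17.7 and 14.7 FPKM in control and 11.7 and 10.8 FPKM in knockdown libraries. BID was the only member to fall past the threshold, from 16.2 ± 2.12 to 11.2 ± 0.637 FPKM (SD, n = 2), to 69.1% of control, with no overlap. The difference was -0.49 (SE 0.0959, 95% interval -0.719 to -0.264, limma adjusted p = 0.0157), and without knockdown replicate 2 the adjusted p was 0.0745.

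BBC3 (chr19:47220822-47232766, minus strand) and PMAIP1 (chr18:59899996-59904305, plus strand) encode PUMA and NOXA, BH3-only proteins induced by DNA damage and, for NOXA, also by ATF4. BBC3 was at 11.6 and 10.2 FPKM in control and 12.9 and 10.8 FPKM in knockdown libraries. PMAIP1 was at 14.0 and 15.4 FPKM in control and 15.6 and 15.1 FPKM in knockdown libraries. In both genes the groups overlapped. The differences were 0.11 (95% interval -0.133 to 0.348, limma adjusted p = 0.481) and 0.06 (95% interval -0.112 to 0.226, limma adjusted p = 0.603), so that a difference as large as that of BCL2L1 lies inside the interval of BBC3 and outside that of PMAIP1.

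**Figure D2:**
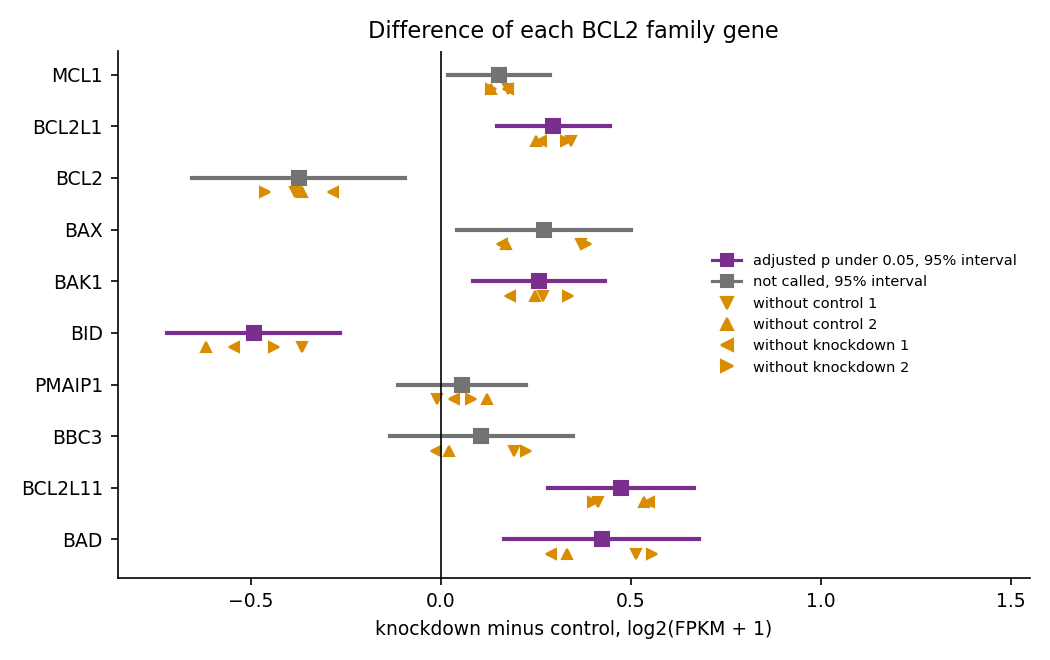
Difference of each member between knockdown and control on the log2(FPKM + 1) scale, with the square at the estimate, the bar its 95% interval, and the other symbols the estimate with a library left out. BCL2L11, BAD, BCL2L1, BAK1, MCL1 and BAX lie above 0 and BID and BCL2 lie under 0 in all of them. MCL1, BAX and BCL2 were still not called. The symbols of BBC3 and PMAIP1 cross 0.

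Sums and ratios of FPKM over the members are given as descriptions, with no test. The 3 survival members summed to 120 and 114 FPKM in control and 136 and 136 FPKM in knockdown libraries. The 2 effectors summed to 80.3 and 71.6 FPKM in control and 98.7 and 85.2 FPKM in knockdown libraries. Both sums were higher in the knockdown libraries, and the ratio of survival to effector RNA overlapped between the groups, at 1.49 and 1.6 in control and 1.38 and 1.59 in knockdown libraries. The ratio of survival to BH3-only RNA did not overlap, at 1.93 and 1.95 in control and 2.05 and 2.18 in knockdown libraries. BAX over BAK1 also overlapped, at 4.4 and 3.89 against 4.23 and 4.04.

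The BH3-only members summed to 61.9 and 58.6 FPKM in control and 66.5 and 62.1 FPKM in knockdown libraries. BID held 28.6% and 25.1% of this sum in control and 17.5% and 17.3% in knockdown libraries. BCL2L11 held 14.8% and 17.1% in control and 19.5% and 23.3% in knockdown libraries. BCL2L11 over BID thus went from 0.517 and 0.683 to 1.11 and 1.35, so that BID was the higher of the pair in both control libraries and BCL2L11 in both knockdown libraries. Ratios to BCL2 rested on its low level. BAX over BCL2 was 39.4 and 33.6 in control and 84.6 and 56.9 in knockdown libraries, and BCL2 made up 1.39% and 1.48% of survival RNA in control and 0.693% and 0.884% in knockdown libraries.

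Splice forms of BCL2 family genes can differ in function, so transcripts were described next. BAK1, BBC3 and PMAIP1 were listed with 1 transcript, and the other members with 2 to 15. Of the 42 transcripts, 27 reached a mean of 1 FPKM and were tested, 22 with a positive and 5 with a negative difference. A transcript that reached this mean only through its higher group had to differ, so these counts are a description, and 13 of the 27 had groups that did not overlap, against 53.9% of tested transcripts. None passed an adjusted p under 0.05 in limma, against 0.158% of 15795 transcripts, and 6 had an unadjusted p under 0.05, against 20.3% of transcripts. Past the study threshold was 1 member transcript, against 2.01% of transcripts. For each transcript the share within its gene was also tested, against the sum of the other transcripts of that gene. Of 39 such tests on members none passed in limma, against 0.00581% of 17203, and 3 had an unadjusted p under 0.05, against 8.67%. How reads were divided between transcripts of a gene was up to the quantifier, and the spread was wider than at gene level, with a median SE of 0.142 over transcripts against 0.0789 over genes.

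BCL2L1 shows why the forms matter, because 2 splice sites at the end of its first coding exon give proteins of opposite effect. The long form BCL-xL protects the cell, and the short form BCL-xS, which lacks part of the groove, opposes it. Both sites lie on the minus strand of chromosome 20 in hg38, 189 bases apart. They are shown with 20 exon bases, the GT of the intron in capitals and 10 further intron bases, the short form at chr20:31721832-31721863 and the long form at chr20:31721643-31721674. Per GENCODE 44 they give 170 and 233 residues.
BCL2L1 short form site: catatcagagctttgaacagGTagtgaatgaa
BCL2L1 long form site: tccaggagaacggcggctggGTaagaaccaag

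NM_138578 is known to code for the long form and NM_001191 for the short form, and the other BCL2L1 transcripts were not assigned to a form here. The long form NM_138578 was at 19.4 and 15.3 FPKM in control and 14.1 and 15.9 FPKM in knockdown libraries. The short form NM_001191 was at 3.51 and 5.34 FPKM in control and 7.15 and 4.65 FPKM in knockdown libraries. Of the sum of these 2 transcripts, NM_001191 made up 15.3% and 25.9% in control and 33.7% and 22.6% in knockdown libraries, so the groups overlapped. This is not the share of the short form in all BCL2L1 RNA, since the unassigned transcripts are left out. Among these, the transcript with the highest mean, NM_001317919, was at 18.5 and 16.1 FPKM in control and 22.7 and 22.0 FPKM in knockdown libraries.

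The BCL2L1 transcript NM_001317921 was the member transcript that passed the threshold of the study. It was at 2.05 and 0.731 FPKM in control and 7.20 and 6.39 FPKM in knockdown libraries, or 3.76% and 1.43% against 10.8% and 10.1% of BCL2L1. The difference was 1.76 (SE 0.317, 95% interval 0.876 to 2.65), with a limma adjusted p of 0.108 for the level and of 0.491 for the share within BCL2L1, so neither was called.

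**Figure D3:**
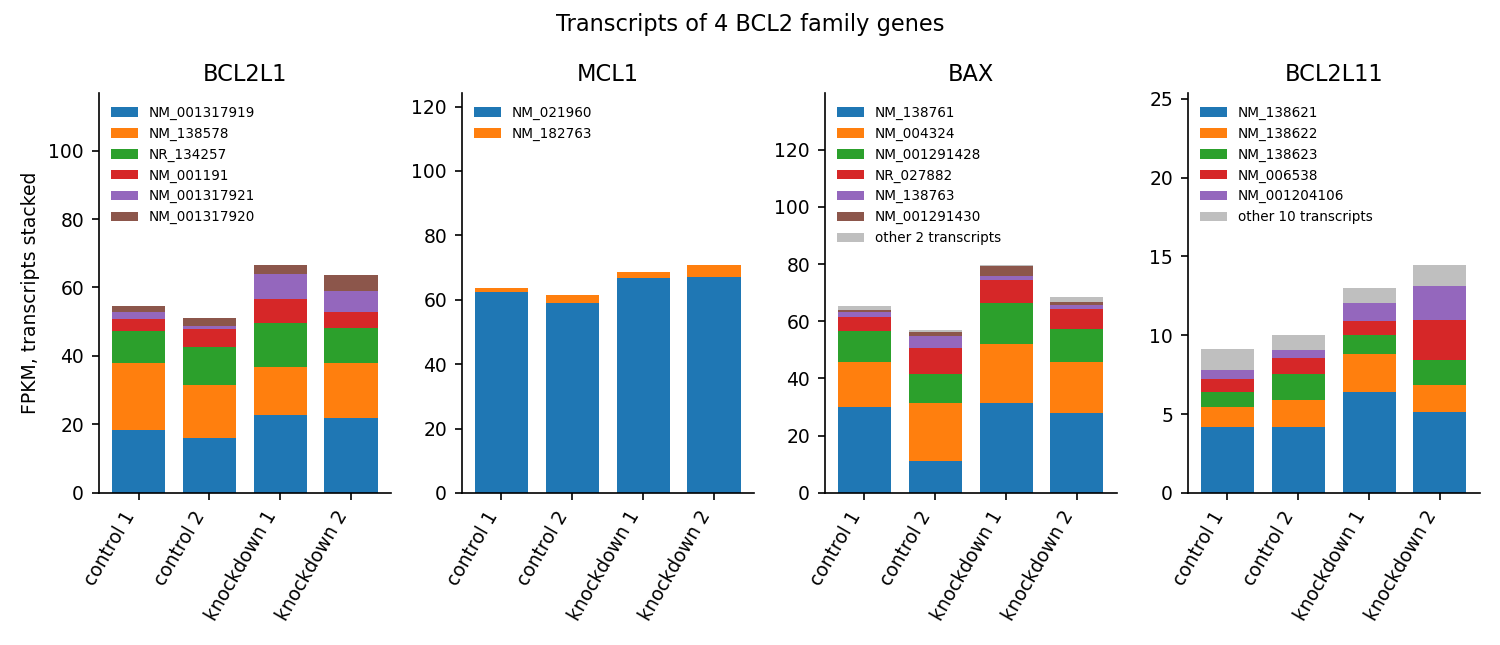
FPKM of the transcripts of BCL2L1, MCL1, BAX and BCL2L11, stacked in each of the 4 libraries, with transcripts under a mean of 1 FPKM joined as other transcripts. NM_001317921 is a thin band of BCL2L1 in the control libraries and 10.8% and 10.1% of it in the knockdown libraries, and the division of BAX differs between the 2 control libraries.

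BAX shows how the division varied within a group. Its alpha form NM_138761 was at 29.9 and 11.3 FPKM in control and 31.45 and 27.99 FPKM in knockdown libraries, and its beta form NM_004324 was at 15.8 and 20.1 FPKM in control and 20.5 and 17.6 FPKM in knockdown libraries. Both overlapped between the groups. MCL1 was almost wholly the long survival form NM_021960, while the short form NM_182763, which promotes death, made up 1.73% and 4.07% in control and 2.89% and 5.42% in knockdown libraries.

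The main transcript of BID, NM_001196, was at 12.7 and 12.4 FPKM in control and 8.39 and 8.05 FPKM in knockdown libraries, and its difference of -0.56 had the lowest adjusted p of the member transcripts (limma adjusted p = 0.0868). The BIM-EL form of BCL2L11, NM_138621, was at 4.17 and 4.18 FPKM in control and 6.40 and 5.15 FPKM in knockdown libraries, a difference of 0.38 that did not pass (limma adjusted p = 0.242). BCL2L11 had 15 transcripts, of which 10 were under a mean of 1 FPKM and 6 were listed at 0 in at least 1 library. NM_001204106 was at 0.565 and 0.478 FPKM in control and 1.14 and 2.17 FPKM in knockdown libraries. It reached a mean of 1 FPKM only through the knockdown libraries, so its direction among tested transcripts is in part set by the filter. Under the filter, NM_001204109 was at 0.227 and 0.18 FPKM and NM_001204112 at 0.036 and 0.0442 FPKM in control libraries, and both were listed at 0 in the knockdown libraries.

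The BAD transcript NM_032989 was at 8.63 and 6.86 FPKM in control and 10.79 and 9.14 FPKM in knockdown libraries, and its lower transcript NM_004322 was at 0.809 and 1.34 FPKM in control and 2.63 and 1.86 FPKM in knockdown libraries. Neither pair of groups overlapped, as at gene level. For BCL2 the alpha form NM_000633 was at 1.40 and 1.51 FPKM in control and 0.905 and 1.09 FPKM in knockdown libraries. Its beta form NM_000657, which lacks the membrane anchor, was at 0.261 and 0.186 FPKM in control and 0.0389 and 0.112 FPKM in knockdown libraries, so both forms of BCL2 were lower in each knockdown library than in each control library.

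Some exons of the members are shared with other genes in GENCODE 44. On the opposite strand, BCL2L1 shares 1735 exon bases with the long noncoding RNA ABALON, BCL2L11 shares 727 with MIR4435-2HG, BAD shares 404 with GPR137, BAK1 shares 91 with the pseudogene GGNBP1 and MCL1 shares 43 with ADAMTSL4. On the same strand, MCL1 shares 328 with ADAMTSL4-AS1. BBC3 covers the microRNA genes MIR3190 and MIR3191. The library kit named in the labels does not mark strand, so reads from these stretches cannot be assigned to a single gene. BID, BAX, BCL2 and PMAIP1 share none.

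CEBP proteins were named after CCAAT sequences, although this box is mainly bound by the factor NF-Y, and CEBPG is known to pair with ATF4 on sites written TGATGNAAT. The letters CCAAT, TGATGNAAT and TGACGTCA, the last a full CRE site, were searched on both strands from 250 bases before to 50 after the start of each gene, in RefSeq windows of GRCh38.p14. These RefSeq starts can differ from the GENCODE starts. The BCL2L11 window lies wholly inside the GENCODE span given for the gene, and others, such as those of BBC3 and BAX, lie partly inside it. There were 15 windows for 9 members, and none for MCL1. CCAAT was found in 6 of the 15 member windows, against 34.6% of all 35116 windows, a share near the background. The 6 windows belong to 5 of the 9 members, which were BCL2L11, BAD, BAK1, BAX and BBC3. TGATGNAAT and TGACGTCA were found in no member, and in 0.991% and 1.85% of all windows. Of the 4 members that rose, BCL2L1 held no CCAAT, and BID, which fell, held none. A match is a description of letters and says nothing of binding.

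The matches before the start in the first window of each gene are shown with 10 bases on either side. They are written along the strand of the gene, where CCAAT reads as ATTGG (capitals). A further match, 76 bases before the start in another window of BAD, is not shown. The matches shown start 58 bases before the start of BCL2L11 (chr2:111120846-111120870, plus strand), 37 before BAD (chr11:64284727-64284751, minus), 202 before BAK1 (chr6:33580464-33580488, minus), 87 before BBC3 (chr19:47232740-47232764, minus), and 203 and 148 before BAX (chr19:48954662-48954686 and chr19:48954717-48954741, plus). All 6 lie in the same orientation.
BCL2L11: gtccgcagtgATTGGgcgtaggagc
BAD: ccgagaggtgATTGGgccaggtcgc
BAK1: tgggttttttATTGGtattgattga
BBC3: ggcgattgcgATTGGgtgagaccca
BAX upstream match: tagagctgcgATTGGacggacggct
BAX downstream match: ggagatgctcATTGGacagtcacgt

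At gene level with no library left out, BCL2L11 had the largest rise of the members. The rise of BAD was larger without control replicate 1 and without knockdown replicate 2. The 250 bases before the RefSeq start of BCL2L11 (chr2:111120664-111120913, plus strand) are shown whole, with the match in capitals.
BCL2L11 promoter: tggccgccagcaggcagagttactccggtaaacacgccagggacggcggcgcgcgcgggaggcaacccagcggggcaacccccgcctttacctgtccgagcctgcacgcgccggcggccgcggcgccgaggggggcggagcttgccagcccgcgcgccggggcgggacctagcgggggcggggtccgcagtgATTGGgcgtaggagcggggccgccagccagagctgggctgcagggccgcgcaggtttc

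Genes that work around the members were described by 7 lists of 80 genes, of which 76 were in the table and 69 were tested. Of these, 13 were higher and 7 lower in the knockdown at an adjusted p under 0.05 in limma, against 10.9% and 9.99% of all tested genes, and 49 did not pass. Each list is to be read beside these shares and beside the median difference of 0.01 over all tested genes. Means in FPKM are given for the called genes, with n = 2 libraries a group.

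Of 6 tested other BCL2 homologues, BCL2L12 was higher and 5 did not pass, with a list median of 0.14. BCL2L12, a BCL2-like protein that acts in the nucleus and cytosol, went from 43.1 to 56.8 FPKM, by 0.40 (limma adjusted p = 0.0446). BOK, an effector-like homologue, was at 2.02 and 2.56 FPKM in control and 4.77 and 3.12 FPKM in knockdown libraries, a difference of 0.57 that did not pass (limma adjusted p = 0.055). BCL2L15, BIK and BMF were under the filter, and BCL2A1, BCL2L10, BCL2L14 and HRK were not analysed here.

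Of 13 apoptosome and caspase genes, most of which act once the mitochondrial membrane has opened, 1 was higher, 1 was lower and 11 did not pass, with a median of -0.02. DIABLO, which encodes the mitochondrial protein SMAC that frees caspases from their inhibitors, was at 28.3 and 27.2 FPKM in control and 18.1 and 18.7 FPKM in knockdown libraries. It fell by 0.57 (limma adjusted p = 0.00236), with the control libraries well above the knockdown libraries. CASP2, an initiator caspase that can act before the mitochondrion by cutting BID, rose from 8.86 to 12.2 FPKM, by 0.42 (limma adjusted p = 0.0092).

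Of 4 tested inhibitors of apoptosis proteins, BIRC5 (survivin, also a mitotic protein) was lower, from 63.3 to 53.6 FPKM, with a difference of -0.24 (limma adjusted p = 0.0361), and 3 did not pass. The list median was -0.08.

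Of 9 tested genes of the death receptor pathway, 3 were higher (against 10.9% of all genes), 1 was lower (against 9.99%) and 5 did not pass, with a median of -0.002. CASP8, which encodes the caspase that cuts BID, was at 8.09 and 8.61 FPKM in control and 14.4 and 13.3 FPKM in knockdown libraries, and rose by 0.66 (limma adjusted p = 0.00259). CASP8 and BID thus moved in opposite directions. The receptor genes TNFRSF1A and TNFRSF10B rose from 15.8 to 23.3 FPKM, by 0.53 (limma adjusted p = 0.00598), and from 12.9 to 17.0 FPKM, by 0.37 (limma adjusted p = 0.0163). RIPK1, a kinase at these receptors, fell from 12.8 to 9.75 FPKM, with a difference of -0.36 (limma adjusted p = 0.0142).

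Of 14 genes for partners and protein regulators of the family, 3 were higher, none lower and 11 did not pass, with a median of 0.06. DYNLL2, the dynein light chain that tethers BMF, rose from 60.8 to 79.6 FPKM, by 0.38 (limma adjusted p = 0.0122). YWHAZ, a 14-3-3 protein that holds phosphorylated BAD, rose from 219 to 267 FPKM, by 0.28 (limma adjusted p = 0.0179). PIM2, a kinase that phosphorylates BAD, rose from 81.0 to 98.6 FPKM, by 0.28 (limma adjusted p = 0.021).

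Of 14 tested genes for transcription factors that act on the family, 1 was higher, 3 were lower and 10 did not pass, with a median of 0.11. TP73, which can induce BBC3, rose from 1.85 to 2.90 FPKM, by 0.45 (limma adjusted p = 0.0198). STAT5A, which can induce BCL2L1, fell from 111.9 to 85.04 FPKM, with a difference of -0.39 (limma adjusted p = 0.00678), while BCL2L1 was higher. MYC fell from 169.6 to 136.3 FPKM, with a difference of -0.31 (limma adjusted p = 0.0209), and TRIB3, an ATF4 target, from 61.0 to 51.3 FPKM, with a difference of -0.24 (limma adjusted p = 0.0466).

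Of 9 tested DNA damage response genes, 4 were higher (against 10.9% of all genes), 1 was lower (against 9.99%) and 4 did not pass, with a median of 0.07. CDKN1A, the cell cycle inhibitor p21, was at 6.97 and 5.89 FPKM in control and 15.3 and 15.8 FPKM in knockdown libraries. Its rise of 1.16 was the largest over the 7 lists and the members (limma adjusted p = 0.000959). GADD45A rose from 59.5 to 79.0 FPKM, by 0.40 (limma adjusted p = 0.00717), and MDM2, a ubiquitin ligase, from 9.09 to 12.7 FPKM, by 0.44 (limma adjusted p = 0.0112). SESN1 rose from 5.70 to 7.51 FPKM, by 0.35 (limma adjusted p = 0.0375), and FDXR fell from 35.8 to 28.6 FPKM, with a difference of -0.31 (limma adjusted p = 0.0377). Of the members that DNA damage is known to induce, BAX, BBC3 and PMAIP1 had differences of 0.27, 0.11 and 0.06, and none of these passed.

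**Figure D4:**
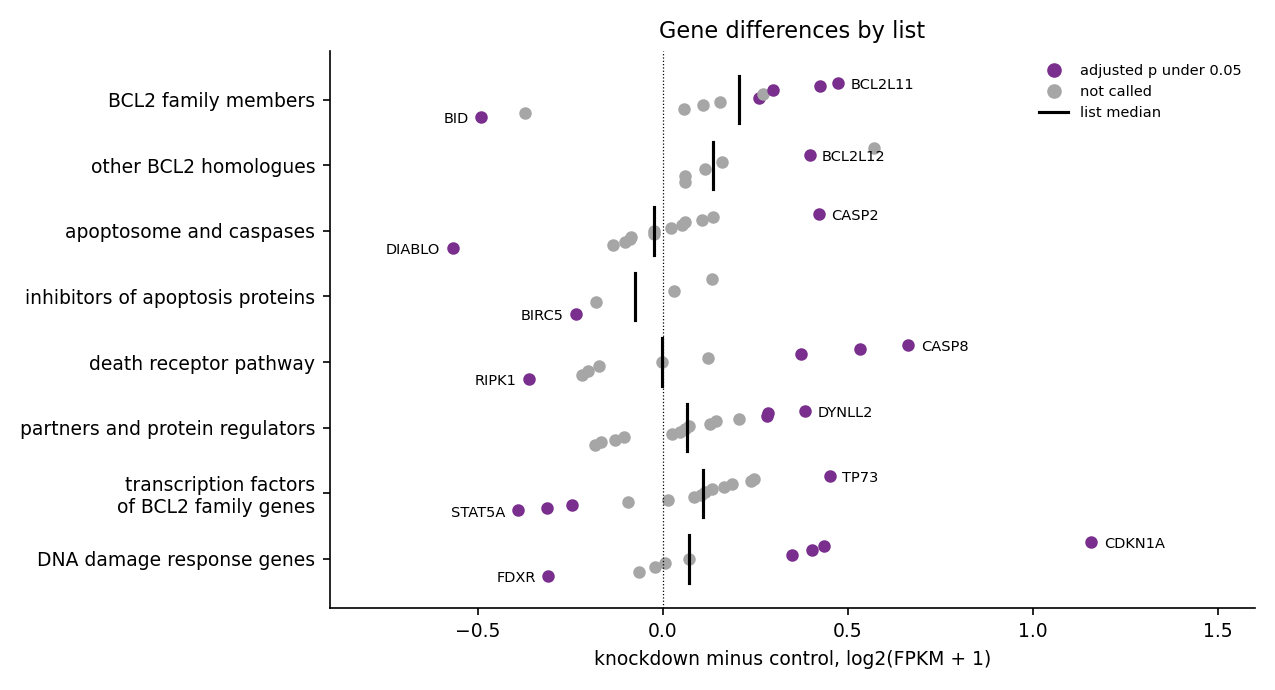
Difference of each tested gene between knockdown and control on the log2(FPKM + 1) scale, by list, with called genes in purple, the others in grey and the list median as a bar. The members have a median of 0.21, CDKN1A lies farthest to the right at 1.16, and DIABLO and BID lie to the left.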

How the data were processed

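The authors deposited 1 table of FPKM values per RefSeq transcript for 2 control and 2 knockdown libraries, which the labels describe as made from total RNA. Reads were mapped with HISAT2 2.0.5 to hg38 per the submitters' processing notes, while the quantifier and annotation are not given in the sources used here. Transcripts were summed by symbol, and rows with no value (183) or no symbol (164, with 0.25% of all FPKM) were left out. An FPKM value depends on the total of its library, so a change in abundant transcripts shifts the rest.

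Genes, or transcripts, with a mean of at least 1 FPKM were fitted together in limma 3.58.1 (R 4.3.3) on log2(FPKM + 1), with group as the only term. Variances were moderated by empirical Bayes along a mean trend, and 2-sided p-values were adjusted by Benjamini-Hochberg over all features tested. Such differences understate those of low genes. The study tested counts, which FPKM values are not. The share test used log2(transcript FPKM + 1) minus the same of the other transcripts of its gene. The code was tested on simulated data. Positions came from GENCODE 44 on GRCh38 and promoters from RefSeq.

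Named were all members and, per list, the called genes with the largest differences, at most 5. BOK was named beyond this rule after its values were seen. Of the lists, 2 genes are not reported here. Members and lists were chosen with earlier results of these data known. Nothing states that replicates came from separate cultures, so p-values measure only the spread between these libraries, which may be technical. Alternatives were another added constant, filter, scaling, moderation, the top transcript, a replicate block and each library left out.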

Additional observations from a re-analysis of the deposited data

How the results depend on the processing

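With 2 libraries a group, the number of calls depended on the settings. Over all genes, 2288 were called, against 882 with no filter on low values and 809 to 1931 with a library left out (809 without knockdown replicate 1 and 865 without knockdown replicate 2). Of the members 5 were called (4 higher and 1 lower), against 0 with no filter (0 higher, 0 lower), 1 when each gene was read by its transcript with the highest mean (0 higher), 2 higher and 2 lower without a mean trend, and 1 to 5 with a library left out (1 to 4 higher, 0 to 1 lower), the count being 3 without control replicate 2, 2 without knockdown replicate 1 and 1 without knockdown replicate 2. Of 12 alternatives, BID was called in 10, BCL2L11 in 9, BCL2L1 in 8, BAD in 7 and BAK1 in 5. BAX was called in 3, among them 1 common sum for all libraries (adjusted p = 0.0417), MCL1 in 1, and BCL2, which is under the filter at 5 FPKM, in 1 of 11. BBC3 and PMAIP1 were called in none, and their differences changed sign. With a library left out, that of BBC3 ranged from -0.0113 (without knockdown replicate 1) to 0.226, and that of PMAIP1 from -0.0089 (without control replicate 1) to 0.123. No other member changed sign. Where a library is left out, the lone library of its group is assumed to vary like those of the other group. The causes were not tested.

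No member transcript was called with any library left out (0 to 0), and 1 was called at a mean of at least 5 FPKM, where fewer transcripts are tested (BID NM_001196). NM_001317921 of BCL2L1 was called in no alternative, with differences of 1.35 to 2.36. Among called genes, 52.1% were higher, against 48.4% under median-ratio scaling and 46.7% under a common sum.

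With the replicate block 3440 genes and 7 members were called, BAX and MCL1 being added. The labels number the libraries 1 and 2 in each group but name no pairing, so the numbers were not taken to pair the libraries. The deviations of same-numbered libraries had a Pearson r of 0.101 across genes, which are not independent replicates. A correlation leaves out a shift common to all genes, so this r cannot show that the numbers carry no shared effect. Replicate 1 had the higher FPKM sum in control (365882 against 345340) and in knockdown libraries (366139 against 355887). Depth was unknown, so it could not be said which low values, such as those of BCL2, were limited by counting error.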
